A study of Mus musculus with 477 samples.

Results

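*Sectm1a*, *Tmc5*, *Chrdl2* and *Sema3b* are 4 of the 21004 genes counted in single mammary luminal and tumor cells of *Brca1* and *Trp53* mutant mice, and they were chosen by their summed reads and shares of cells in tumors and in luminal mice. The working name of the set was luminal genes silenced in all tumors. The levels matched that name for *Sectm1a*, *Tmc5* and *Chrdl2*, which were read in all 7 luminal mice and gave 3 reads in all from 4 tumors. They went against it for *Sema3b*, which was read in all 4 tumors and was at or near 0 in 6 of 7 luminal mice. The 4 genes are therefore called by their own names. Because the contrast of tumor with luminal cells chose them, their values in it are a description with no test.

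The cells came from 11 female mice that carried MMTV-Cre, a transgene active in the mammary epithelium. Luminal cells were sorted on a ROSA mT/mG reporter, which turns green once Cre has acted. Br mice were *Brca1* fl/fl, 53 mice were *Trp53* fl/+ and Br53 mice were *Brca1* fl/fl with *Trp53* fl/+, all on a mixed C57BL/6 and 129/Sv background. The study's methods give these genotypes, while the legend of its flow cytometry figure gives *Trp53* fl/fl for *Trp53* and double mutant mice. This difference was not resolved here. Luminal cells were taken from virgin mice (vBrL, vBr53L and v53L, 1 mouse each) and from mice at day 12.5 of pregnancy (pBrL-1 and pBrL-2, pBr53L, p53L), all of them three-to-four months old, and were sorted as live CD24 high, CD29 low, GFP-positive cells. Tumor cells were sorted as live CD24-positive cells from tumors of about 1 cm (BrT1, BrT2, Br53T1 and Br53T2, 1 mouse each); the age of the tumor mice was not used here. No *Brca1* and *Trp53* wild type mouse was among them, so every comparison is between mutant cells, and with 1 mouse in most groups the mouse, not the cell, is the replicate.

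Luminal cells line the ducts and the alveoli of the mammary gland. One kind of luminal cell carries hormone receptors, and the other kind holds the progenitors of the alveolar cells, which multiply in pregnancy and make milk proteins and milk fat. *Sectm1a* encodes a transmembrane and secreted protein that acts as a co-stimulatory ligand for T cells through the receptor GITR (*Tnfrsf18*). *Tmc5* belongs to the transmembrane channel-like family, whose best known members form the mechanotransduction channel of inner ear hair cells. *Chrdl2* encodes chordin-like 2, a secreted protein that binds bone morphogenetic proteins (BMPs) and keeps them from their receptors. *Sema3b* encodes a secreted class 3 semaphorin, a guidance cue that signals through neuropilins and plexins.

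The study also knocked out each of these genes with Cas9, in the cultured mammary epithelial lines B477 and G600 and not in the mice profiled here. Its guides are shown because they fix where in each gene the study acted. They are written 5′ to 3′ in lower case, and the capitals mark the PAM, the bases beside the target that Cas9 needs, as read from the GENCODE vM21 transcript.
*Sectm1a*: cgcgaagagctctccaatagAGG
*Tmc5*: ccaattctacaatccgacatAGG
*Chrdl2*: acgcagtatatcgtgccttgTGG
*Sema3b*: gcccgatgccttgggtcataAGG
On GRCm38, the assembly also called mm10, the *Sectm1a* guide matched chr11:121068823-121068842 on the minus strand, in coding exon 5 of 6 of a gene that spans chr11:121067407-121081220 on the minus strand. The *Tmc5* guide matched chr7:118645312-118645331 on the plus strand, in coding exon 5 of 18 (gene at chr7:118597297-118675086, plus strand). The *Chrdl2* guide matched chr7:100017052-100017071 on the minus strand, in coding exon 2 of 11 and opposite to the transcript (gene at chr7:100006172-100034728, plus strand). The *Sema3b* guide matched chr9:107603139-107603158 on the plus strand, in coding exon 7 of 19 and opposite to the transcript (gene at chr9:107597674-107609229, minus strand). No other annotated gene overlapped any of the 4 genes, so reads could not be shared with an overlapping neighbor.

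In all, 312 luminal cells and 165 tumor cells were analysed, with 170209 to 3550564 reads and 1853 to 8586 detected genes per cell and 40.3 to 116 M reads per mouse. Levels are given as CPM, the reads of a gene in all cells of a mouse per M reads of that mouse. Epithelial identity differed among the tumors. In luminal mice the 6 luminal markers added up to between 8660 and 13700 CPM, and in tumors to 846 (BrT1), 4669 (BrT2), 5780 (Br53T1) and 6578 CPM (Br53T2), with *Krt19* and *Cdh1* at 0 in BrT1. The 10 luminal progenitor and alveolar markers, milk proteins included, lay between 36167 and 175118 CPM in sum in luminal mice and between 66.6 and 4692 CPM in tumors. Of them *Csn2*, *Csn1s1*, *Csn1s2a*, *Wap* and *Lalba* were at 0 in BrT1. Fibroblast markers summed to 4955 CPM in BrT1, most of it *Dcn*, and basal markers to 5335 CPM in Br53T2, against at most 712 and 375 CPM in luminal mice. The part of these differences in the levels below was not tested. Reads of *Brca1* did not check the labels, since the counts cover the whole gene and not only its deleted part (2.03 to 31.8 CPM in Br, 29.9 to 31.5 in Br53 and 5.21 to 6.99 in 53 luminal mice).

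*Sectm1a* was read in every luminal mouse and in no tumor cell. Virgin luminal cells held 15.4 (vBrL), 1.28 (vBr53L) and 3.67 CPM (v53L), and pregnant luminal cells held 27.3 (pBrL-1), 33.7 (pBrL-2), 33 (pBr53L) and 73.1 CPM (p53L). All 4 tumors had 0 reads of it, out of 286 M reads together. The pooled luminal level was therefore at least 2533-fold higher than that of tumors, taking 3 reads over all tumors as the limit that a count of 0 allows. The mean was 41.8 ± 21.1 CPM in pregnant mice (SD, n = 4) and 6.79 ± 7.57 in virgin mice (SD, n = 3), so the order of the groups was pregnant, virgin, tumor, with no overlap of mice between neighbors.

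*Tmc5* differed least of the 3 among luminal mice. It held 32.8 (vBrL), 39.6 (vBr53L) and 26.2 CPM (v53L) in virgin mice and 41.5 (pBrL-1), 15.3 (pBrL-2), 27 (pBr53L) and 34.2 CPM (p53L) in pregnant mice, so that these groups overlapped. The means were 32.9 ± 6.74 CPM (SD, n = 3) and 29.5 ± 11.2 CPM (SD, n = 4). Of the tumors only Br53T2 had a read, and it had 1 (0.0110 CPM), against 16302 reads in luminal cells. The ratio of the pooled levels was 9024, with an exact 95% interval of 1619 to 356500.

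*Chrdl2* spanned the widest range of the 3 among luminal mice, by ratio. Virgin mice held 0.173 (vBrL), 4.26 (vBr53L) and 18.7 CPM (v53L), and pregnant mice held 51.2 (pBrL-1), 29.4 (pBrL-2), 52.3 (pBr53L) and 16 CPM (p53L). The v53L mouse lay above p53L, so that virgin mice (7.71 ± 9.73 CPM, SD, n = 3) and pregnant mice (37.2 ± 17.6, SD, n = 4) overlapped. In tumors, 2 reads were found, both in Br53T2 (0.0220 CPM), and the pooled level was 4223 times higher in luminal cells (1169 to 34870).

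*Sema3b* ran the other way. Tumors held 3.01 (BrT1), 175 (BrT2), 7.29 (Br53T1) and 6.83 CPM (Br53T2). Luminal mice held 0 (vBr53L, pBrL-1, pBrL-2 and p53L), 0.0248 (v53L, 1 read), 0.0289 (vBrL, 2 reads) and 1.71 CPM (pBr53L, 172 reads). Every tumor thus lay above every luminal mouse, and BrT2 lay far above the other tumors. The pooled tumor level was 104 times the luminal level (89.2 to 121). It was 16.2 (13.8 to 19) without BrT2, and 4868 (1665 to 23610) without pBr53L, which held 172 of the 175 luminal reads. The mean over tumors was 48.1 ± 84.8 CPM (SD, n = 4) and, without BrT2, 5.71 ± 2.35 (SD, n = 3). The intervals of these ratios and of those of *Tmc5* and *Chrdl2* cover counting error only, and PCR copies of 1 molecule were counted as separate reads. The intervals of shares of cells below cover the counting of cells within a mouse, not the spread between mice.

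**Figure D1:**
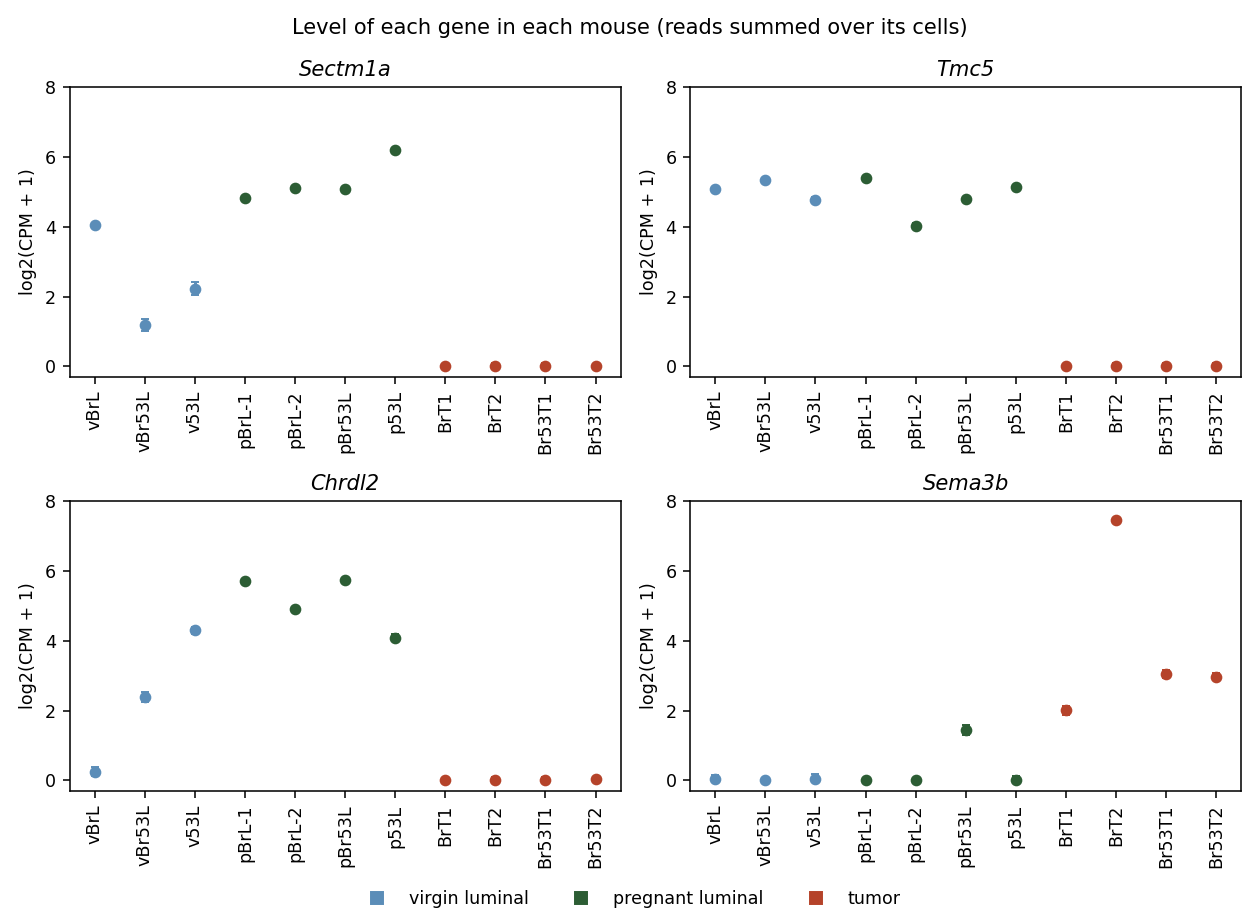
Level of each gene in each of the 11 mice as log2(CPM + 1) of the reads summed over its cells; bars are exact 95% Poisson intervals of the read count and are mostly shorter than the points. *Sectm1a*, *Tmc5* and *Chrdl2* sit at 0 or next to it in all 4 tumors, while *Sema3b* is above every luminal mouse in all 4, with BrT2 at 175 CPM.

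These values were set against all genes with no test, since the same contrast chose the genes. Every tumor lay below every luminal mouse for 180 of 19603 genes with a read (0.918%), *Sectm1a*, *Tmc5* and *Chrdl2* among them, and above every luminal mouse for 517 (2.64%), *Sema3b* among them. Of 8315 genes with a luminal mean of at least 10 CPM, 14 (0.168%) had at most 2 reads over all tumors, and 5 of the 14 were read in all 7 luminal mice, the 3 genes included. No read at all in tumors was found for 8 of the 8315 (0.0962%), of which *Sectm1a* is 1. Of 9217 genes with a tumor mean of at least 10 CPM, 462 (5.01%) had a tumor mean of at least 10 times the luminal mean, *Sema3b* among them, which would not reach 10 CPM without BrT2. Per kb of exon, the luminal mean was 15.8 CPM for *Sectm1a*, 6.92 for *Tmc5* and 6.72 for *Chrdl2*, and the tumor mean was 10.1 CPM for *Sema3b*.

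Tumor and luminal cells were loaded on different chips with 1 exception, so chip and tissue cannot be told apart over the series. On the chip that held both, Br53T2 and pBrL-2 had 0 and 33.7 CPM of *Sectm1a*, 0.0110 and 15.3 of *Tmc5*, 0.0220 and 29.4 of *Chrdl2*, and 6.83 and 0 of *Sema3b*. All 3 reads of *Tmc5* and *Chrdl2* in tumors came from that chip, and whether sharing it with luminal cells had a part in them was not tested.

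A summed level cannot tell fewer cells with a transcript from less RNA per cell, so the cells were also counted, each thinned to 100000 reads. *Sectm1a* was read in 2.86% (vBrL), 5.13% (vBr53L) and 5.00% (v53L) of virgin cells and in 19.7% (pBrL-1), 21.1% (pBrL-2), 20.8% (pBr53L) and 19.4% (p53L) of pregnant cells. The exact 95% intervals of the pregnant mice ran from 8.19% to 37.3%. Without thinning the pregnant shares were 25.4%, 28.9%, 43.4% and 27.8%, in the same order. *Sectm1a* was seen in 0 of 165 tumor cells, which allows a share of up to 1.82% by the limit of 3 cells and 2.21% by the exact interval, with the cells of 4 tumors pooled. Within single tumors the exact 95% upper limits were 6.98% to 11.6%.

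*Tmc5* was read in 11.4% (vBrL), 7.69% (vBr53L) and 15% (v53L) of virgin cells and in 22.5% (pBrL-1), 18.4% (pBrL-2), 20.8% (pBr53L) and 27.8% (p53L) of pregnant cells. Unlike its CPM, its share of cells with a read did not overlap between the stages. With at least 5 reads required of a cell the stages did overlap. There pBrL-2 (7.895%) lay below vBrL (8.57%) and v53L (10.0%), while the other pregnant mice lay at 12.7% to 16.7%. The median reads per cell with a read, out of 100000, were 10.5 (vBrL), 48 (vBr53L) and 11.5 (v53L) in virgin mice and 7.5 (pBrL-1), 4 (pBrL-2), 12 (pBr53L) and 5.5 (p53L) in pregnant mice, so that the stages overlapped.

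*Chrdl2* was read in 0% (vBrL), 5.13% (vBr53L) and 7.50% (v53L) of virgin cells and in 43.7% (pBrL-1), 36.8% (pBrL-2), 52.8% (pBr53L) and 25% (p53L) of pregnant cells. It was the most widely detected of the 4 genes in 3 of 4 pregnant mice, while *Tmc5* was in p53L. The p53L mouse, whose CPM was below that of v53L, still had the larger share of cells. No tumor cell kept a read of *Chrdl2* after thinning. For all 3 genes every pregnant mouse was above every virgin mouse in this share, which was also so for 19.3% of the 8315 genes above 10 CPM. With at least 5 reads required of a cell, it still held for *Sectm1a* and *Chrdl2* but not for *Tmc5*.

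*Sema3b* was read in 12.8% (BrT1), 73% (BrT2), 10.0% (Br53T1) and 7.84% (Br53T2) of tumor cells. The exact 95% intervals were 4.83% to 25.7%, 55.9% to 86.2%, 2.11% to 26.5% and 2.18% to 18.9%, and with 1 mouse each the tumors were not tested against each other. In luminal cells it was read in 7.55% of pBr53L cells (2.10% to 18.2%) and in none of the other mice after thinning.

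**Figure D2:**
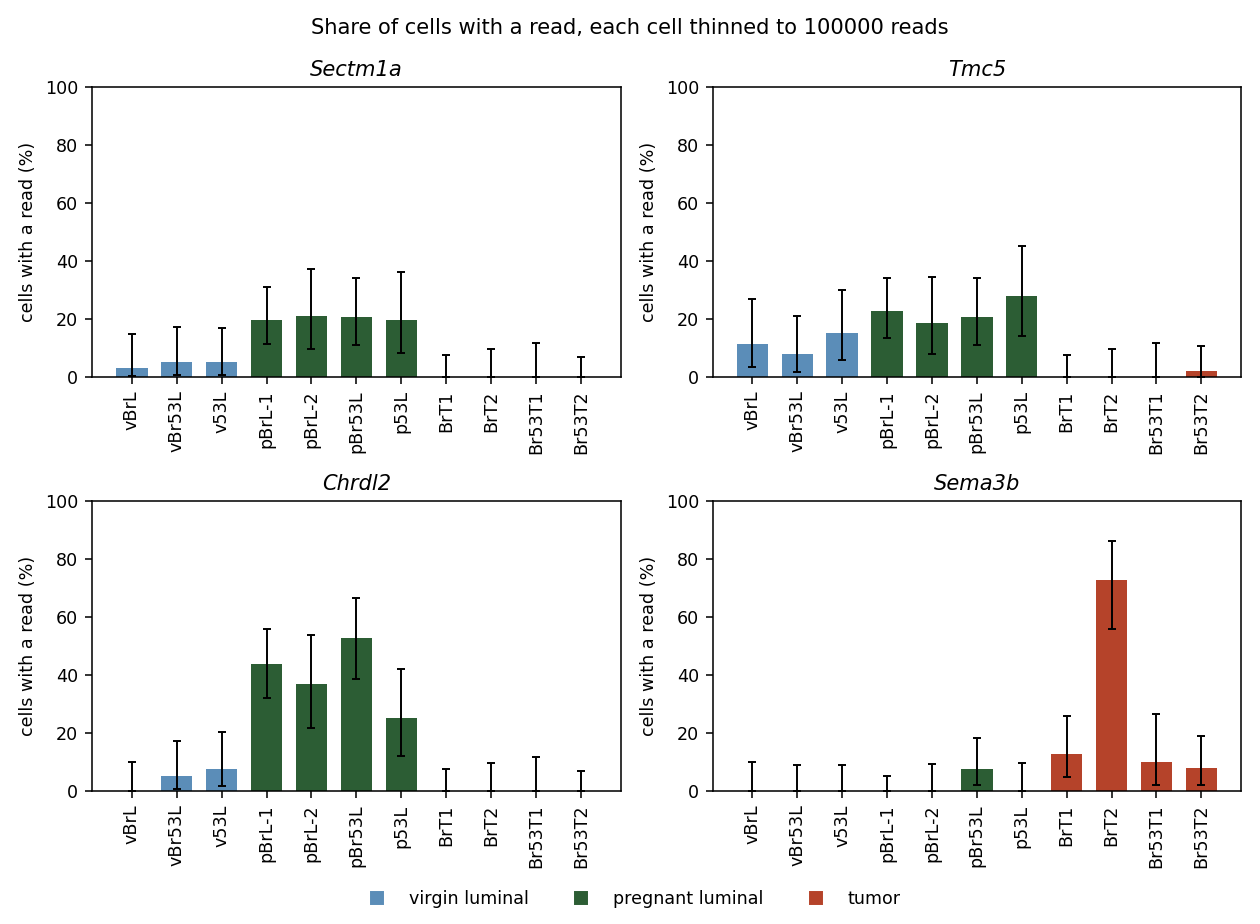
Share of the cells of each mouse with at least 1 read of the gene after thinning each cell to 100000 reads, with exact 95% binomial intervals. Pregnant mice are above virgin mice for *Sectm1a*, *Tmc5* and *Chrdl2*, tumors are at 0 or 1.96%, and *Sema3b* reaches 73% of BrT2 cells.

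The reads of a mouse came from few of its cells. In vBrL, 953 of 1069 *Sectm1a* reads (89.2%) came from 1 cell, and in vBr53L and v53L 1 cell held 88.5% and 87.8%. For *Tmc5* 1 cell held 84.2% of the reads in vBrL and 62% in vBr53L, and all 12 *Chrdl2* reads of vBrL were in 1 cell. In vBr53L and v53L the top cell held 85.9% and 49.6% of the *Chrdl2* reads. Levels of virgin mice thus rested largely on single cells, with *Tmc5* in v53L (33.4%) the lowest share. In pregnant mice the top cell held between 31.3% and 54.6% for *Sectm1a* and between 17.3% and 29.1% for *Chrdl2*, below every virgin mouse. For *Tmc5* it held 25.6% to 54.3%, which overlapped the virgin mice. In BrT2 the top cell held 13.3% of the *Sema3b* reads, while in the other tumors it held 48.6% to 57.5%.

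**Figure D3:**
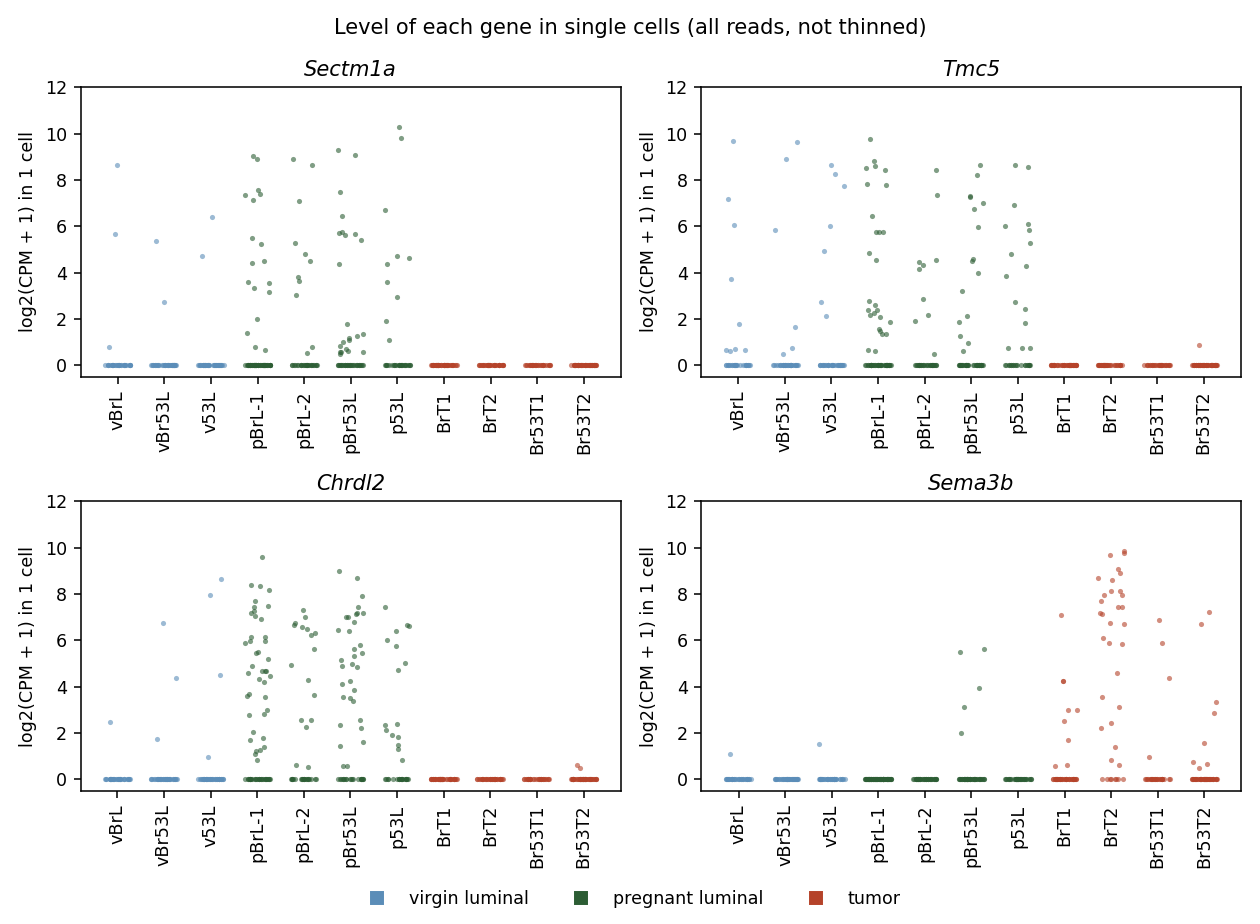
Level of each gene in each single cell as log2(CPM + 1), all reads used, with points spread sideways within a mouse. Most cells are at 0, the highest cell reaches 10.3 for *Sectm1a*, 9.76 for *Tmc5* and 9.62 for *Chrdl2*, and only BrT2 has *Sema3b* reads in most of its cells.

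The 3 genes were not confined to the same luminal cells. After thinning, 179 of 312 luminal cells had a read of none of them, 84 had 1 of the 3, 42 had 2 and 7 had all 3. Among 198 pregnant cells, *Sectm1a* and *Tmc5* were read together in 15, where the product of their shares within mice gives 8.86. *Sectm1a* and *Chrdl2* were together in 23 (product 16.6) and *Tmc5* and *Chrdl2* in 21 (product 17.9). These overlaps are a description, since cells of 1 mouse are not independent samples and a cell with more captured RNA gives more genes at once.

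For markers, the cells with a read of each gene were taken without thinning, so that the counts also follow the depth of a cell. Luminal keratin was read in all luminal cells, with or without the 3 genes. A read of *Krt8* or *Krt18* was found in all 62 pregnant cells with *Sectm1a*, all 69 with *Tmc5* and all 107 with *Chrdl2*, and a read of the immune genes *Ptprc* or *Lyz2* in 3, 1 and 4 of them. *Wap*, a whey protein gene of alveolar cells, was read in 71% of pregnant cells with *Chrdl2* and in 40.7% of those without it. For *Sectm1a* these shares were 71% and 50.7%, and for *Tmc5* 65.2% and 52.7%. In virgin cells the shares with *Wap* were 14.3% and 13.1% for *Sectm1a*, 31.8% and 8.70% for *Tmc5* and 12.5% and 13.2% for *Chrdl2*. *Elf5*, a transcription factor of alveolar progenitors, was read in 98.4% of pregnant cells with *Sectm1a* and 88.2% of those without, in 97.2% and 84.6% for *Chrdl2*, and in 91.3% and 91.5% for *Tmc5*. In virgin cells these shares were 85.7% and 43.9% for *Sectm1a*, where 7 cells had a read, 50% and 46.2% for *Chrdl2*, where 8 had, and 68.2% and 41.3% for *Tmc5*. The prolactin receptor gene *Prlr*, of the hormone-sensing list, was also read more often in pregnant cells with each gene, in 77.4% and 69.9% for *Sectm1a*, 75.4% and 70.5% for *Tmc5* and 80.4% and 62.6% for *Chrdl2*. In virgin cells the *Prlr* shares were 57.1% and 86.9% for *Sectm1a*, 86.4% and 84.8% for *Tmc5* and 87.5% and 84.9% for *Chrdl2*. The pregnant cells with a read also had more detected genes, with medians of 5921 against 4725 for *Sectm1a*, 5176 against 4901 for *Tmc5* and 5444 against 4686 for *Chrdl2*. The part of that difference in the shares was not tested.

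Each cell was also scored by the mean log2(CPM + 1) of the alveolar markers. Within mice, this score and the log2(CPM + 1) of the gene had positive Pearson correlations over cells in 6 of 7 luminal mice for *Sectm1a* (mean r = 0.18), 7 of 7 for *Tmc5* (mean r = 0.25) and 7 of 7 for *Chrdl2* (mean r = 0.27). The same with hormone-sensing markers gave means of -0.07, -0.10 and 0.02. These correlations are weak, in sparse counts and between cells of 1 library.

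The same was done for *Sema3b*, with its own reads not thinned and the marker reads thinned. The 5 luminal cells of pBr53L with *Sema3b* reads all had *Krt8* or *Krt18*, *Epcam* and *Elf5* reads. None had a *Ptprc* or *Lyz2* read after thinning, although pBr53L had the highest summed level of immune markers among luminal mice (250 CPM). In tumors, all 29 BrT2 cells with *Sema3b* reads had *Krt8* or *Krt18* reads and 27 had *Epcam* reads. In BrT1, only 1 of the 9 cells with *Sema3b* reads had an *Epcam* read, and all 9 had *Dcn* reads, as did all 38 BrT1 cells without *Sema3b*. All 9 also had *Krt8* or *Krt18* reads.

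The first tested question was whether pregnancy moved the genes in luminal cells. The genes were chosen for tumor against luminal levels, but with their virgin and pregnant levels in view, so these p-values are not independent of the choice. In edgeR's quasi-likelihood test over the 7 luminal mice, with genotype as covariate and Benjamini-Hochberg adjustment over 12615 genes, *Sectm1a* gave a log2 difference of 2.98 ± 0.96 (SE), pregnant above virgin, with an adjusted p = 0.445 that missed the threshold of 0.05. All 4 pregnant mice were above all 3 virgin mice, which held for 505 of 8315 genes above 10 CPM (6.07%). DESeq2 gave it an adjusted p = 0.0103 and edgeR without the low-count filter 0.0355, both past the threshold. Within the chips that held both stages, *Sectm1a* went from 1.28 to 33 CPM (vBr53L and pBr53L) and from 3.67 to 73.1 (v53L and p53L).

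*Chrdl2* differed by 3.76 ± 1.77 (log2, SE) with an edgeR adjusted p = 0.567, and by 3.74 with an adjusted p = 0.0194 in DESeq2. On shared chips it went from 4.26 to 52.3 CPM in Br53 and from 18.7 to 16 CPM in 53 mice. *Tmc5* differed by -0.09 ± 0.57 (log2, SE, edgeR adjusted p = 0.981). *Sema3b* had too few luminal reads to enter the test. Over all genes edgeR called 0 higher (0%) and 2 lower in pregnancy (0.0159%), with 1229 at an unadjusted p under 0.05, and DESeq2 called 697 higher (3.78%) and 591 lower (3.21%). The DESeq2 fit did not use edgeR's low-count filter, so that tool and filter changed together there. The call of *Sectm1a* also changed with the filter within edgeR, while *Chrdl2* passed in DESeq2 and had an adjusted p = 0.107 in edgeR without the filter.

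The second question was whether the genes already differed by genotype before any tumor. Br and Br53 luminal mice together were compared with 53 luminal mice. No chip held luminal cells of different genotypes, so genotype and chip cannot be told apart here or between Br53 and Br mice. In edgeR the log2 difference was -0.67 ± 0.89 for *Sectm1a* (SE, adjusted p = 0.908), -0.11 ± 0.62 for *Tmc5* (adjusted p = 0.985) and -1.89 ± 1.71 for *Chrdl2* (adjusted p = 0.855). None passed the threshold, and neither did any other gene in edgeR (0%), where 759 had an unadjusted p under 0.05. DESeq2 called 860 genes (3.24% higher and 1.43% lower in *Brca1* mutant mice) and none of the 3. All 3 genes were read in each of the 5 *Brca1* mutant luminal mice, where *Tmc5* held at least 15.3 CPM.

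Br53 luminal mice were compared with Br luminal mice in the same fit. The log2 difference was -1.42 ± 1.08 for *Sectm1a* (SE, edgeR adjusted p = 1.00), 0.19 ± 0.68 for *Tmc5* (adjusted p = 1.00) and 1.04 ± 1.55 for *Chrdl2* (adjusted p = 1.00). No gene passed in edgeR (0%), where an unadjusted p under 0.05 was found for 382, and DESeq2 called 383 (0.657% higher and 1.42% lower in Br53 mice) without any of the 3. Over the 3 comparisons the standard errors ran from 0.57 to 1.77 on the log2 scale.

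The genes nearest to each member over all 11 mice were found by the Pearson correlation of log2(CPM + 1), which is dominated by the split between luminal and tumor mice. Those most like *Sectm1a* were *Cd36*, a fatty acid transporter (r = 0.96), *Ttc25*, *Spcs2*, a signal peptidase subunit, *Alox15*, a lipoxygenase, and *Olah*, the thioesterase that releases medium-chain fatty acids in the mammary gland (r = 0.94). *Cd36* had means of 26.8 CPM in virgin mice, 1480 in pregnant mice and 0.0193 in tumors, and *Olah* had 6.40, 58.3 and 0.00551 CPM.

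The genes most like *Tmc5* were *Cel*, a lipase (r = 0.96), *Ptafr*, the receptor of platelet activating factor, *Btn1a1*, a protein of the milk fat globule membrane, *Sppl2a* and the transcription factor *Crem* (r = 0.94). *Cel* had 166 CPM in virgin mice, 110 in pregnant mice and 0.0165 in tumors. The genes most like *Chrdl2* were *Lao1*, an amino acid oxidase (r = 0.96), *Wap*, *Il15ra*, *Abhd17c* and *Fabp3*, a fatty acid binding protein (r = 0.91). *Lao1* had 16, 321 and 0.00275 CPM, and *Fabp3* 21.3, 724 and 0.203 CPM, in virgin mice, pregnant mice and tumors.

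Among the genes most like *Sema3b* were *Gng11*, a G protein subunit (r = 0.98), *Fam198b*, *Syngr3* and *Itgb1bp2* (r = 0.96). *Gng11* was at 0 in virgin and pregnant mice and had 23.9 CPM in tumors, with a highest value of 87.3.

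Over luminal cells within mice the correlations of *Sectm1a*, *Tmc5* and *Chrdl2* were lower. Among these 3 the highest was that of *Chrdl2* with *Fabp3* (mean r = 0.39 over 7 mice), followed by *Lipa*, *Csn1s2a*, *Flcn* and *Trf* (0.30 to 0.29). *Sectm1a* was closest to *Gda* (0.28), *Hivep3*, *Slc16a12*, *Stard5* and *Car2* (0.23), and *Tmc5* to *Slc39a14* (0.28), *Cyp2f2*, *Glipr2*, *Slc28a3* and *Clpb* (0.25). *Sema3b* was read in luminal cells of 3 mice only, and its higher values there, from 0.57 for *Fam135a* through *Mcm10*, *Bach2* and *Tagap1* to 0.43 for *Kif14*, rest on 7 cells with a read.

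No related gene of the Sectm1, TMC, semaphorin and BMP lists lay below every luminal mouse in every tumor (0.918% of all genes with a read did), so these lists stood near that background. Of the cell type markers, 3 of 6 luminal and 5 of 10 luminal progenitor and alveolar genes did, and none of the other marker lists. *Sectm1b*, the paralog whose start lies 17.7 kb from that of *Sectm1a*, held 10.9 to 47.7 CPM in luminal mice and 1.46 (BrT1), 0 (BrT2), 7.00 (Br53T1) and 17.4 CPM (Br53T2) in tumors, so that Br53T2 overlapped the luminal mice. The 2 genes shared 0 stretches of 50 bases in their annotated transcripts, so reads of that length could be told apart. Of the receptors, *Tnfrsf18* (GITR) held 0.0173 to 14 CPM in luminal mice and 0, 3.27, 8.34 and 28.9 CPM in BrT1, BrT2, Br53T1 and Br53T2. *Cd7*, a T cell surface protein that binds Sectm1 proteins, was read in pBrL-1 (1.08 CPM) and BrT1 (0.110 CPM) only.

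In the *Tmc* family, *Tmc4* was the most abundant member, with 219 to 342 CPM in luminal mice, 0 in BrT1 and 103 (BrT2), 211 (Br53T1) and 250 CPM (Br53T2) in the other tumors. It was read in 80.6% to 93% of luminal cells, 0% of BrT1 cells and 59.5% to 96.7% of cells of the other tumors. *Tmc7*, whose start lies 12.6 kb from that of *Tmc5*, held 0 to 48.1 CPM in luminal mice and 4.69, 0.140, 30.4 and 76.5 CPM in the 4 tumors. *Tmc6* held 24 to 44.1 CPM in tumors and 4.06 to 31.5 in luminal mice. Of the 8 family members, *Tmc5*, chosen for this, was below every luminal mouse in every tumor (0.918% of all genes with a read were).

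Among the 32 genes of the BMP list, *Chrdl2* was the only 1 below every luminal mouse in every tumor, and *Twsg1* and *Id1* were above, beside 0.918% below and 2.64% above over all genes with a read. Its relative *Chrdl1*, also a BMP antagonist, was nearly the reverse in Br tumors, with 76.8 CPM in BrT1 and 27.6 in BrT2, 0 in both Br53 tumors and 0 to 4.65 in luminal mice. *Fst* (follistatin, which binds activins and BMPs) reached 260.5 CPM in Br53T2 and 26.2 in BrT1, and *Sostdc1* 88.9 CPM in Br53T2 and 31.3 in Br53T1, where luminal mice held at most 3.38 and 2.65. Each tumor thus held another BMP antagonist at 27.6 CPM or more, and these differed between tumors. *Twsg1*, a modulator of BMP binding, held 88.2 to 104.5 CPM in tumors and 18.1 to 86.5 in luminal mice.

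The BMP receptors *Bmpr1a* (109 to 122 CPM) and *Bmpr2* (108 to 209) were present in all 4 tumors and overlapped the luminal mice (64.8 to 192 and 31.4 to 206). The target gene *Id1* held 69.5 (BrT1), 177 (BrT2), 14.6 (Br53T1) and 24.3 CPM (Br53T2) in tumors and at most 11.2 in luminal mice. *Id3* held 990, 383, 7.00 and 681 CPM in the same order and 0.0345 to 84 in luminal mice, so that Br53T1 overlapped them. The ligand *Bmp3* held 417 (vBrL), 59.1 (vBr53L) and 325 CPM (v53L) in virgin mice, at most 5.19 in pregnant mice 0 in BrT1, BrT2 and Br53T1, and 136 CPM in Br53T2.

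Of the 14 semaphorin genes, *Sema3b*, *Sema3d* and *Sema3f* were above every luminal mouse in every tumor, as were 2.64% of all genes with a read. *Sema3d* was at 0 in all 7 luminal mice and held 0.828 (BrT1), 189 (BrT2), 0.182 (Br53T1) and 10.2 CPM (Br53T2), with BrT2 highest as for *Sema3b*. After thinning, 27 of 37 BrT2 cells had a *Sema3b* read, 24 a *Sema3d* read and 18 both, where the product of the shares gives 17.5. *Sema3f* held 7.67 to 18.2 CPM in tumors and 0 to 6.25 in luminal mice. *Sema3c* was highest in Br53T2 (462.5 CPM) and otherwise overlapped, with 10.4 to 94.2 CPM in the other tumors and 2.06 to 97.7 in luminal mice.

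The neuropilins, the ligand-binding receptors of class 3 semaphorins, were not high where *Sema3b* was highest. *Nrp1* held 17.1 (BrT1), 0 (BrT2), 0.182 (Br53T1) and 18 CPM (Br53T2), and *Nrp2* 118, 0.0200, 3.41 and 6.66 CPM. *Plxna3*, a plexin that transmits the signal, held 21.2 to 56.2 CPM in tumors and 0.0130 to 29.9 in luminal mice. BrT2, with 175 CPM of *Sema3b*, thus had the lowest level of both neuropilins among the tumors.

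**Figure D4:**
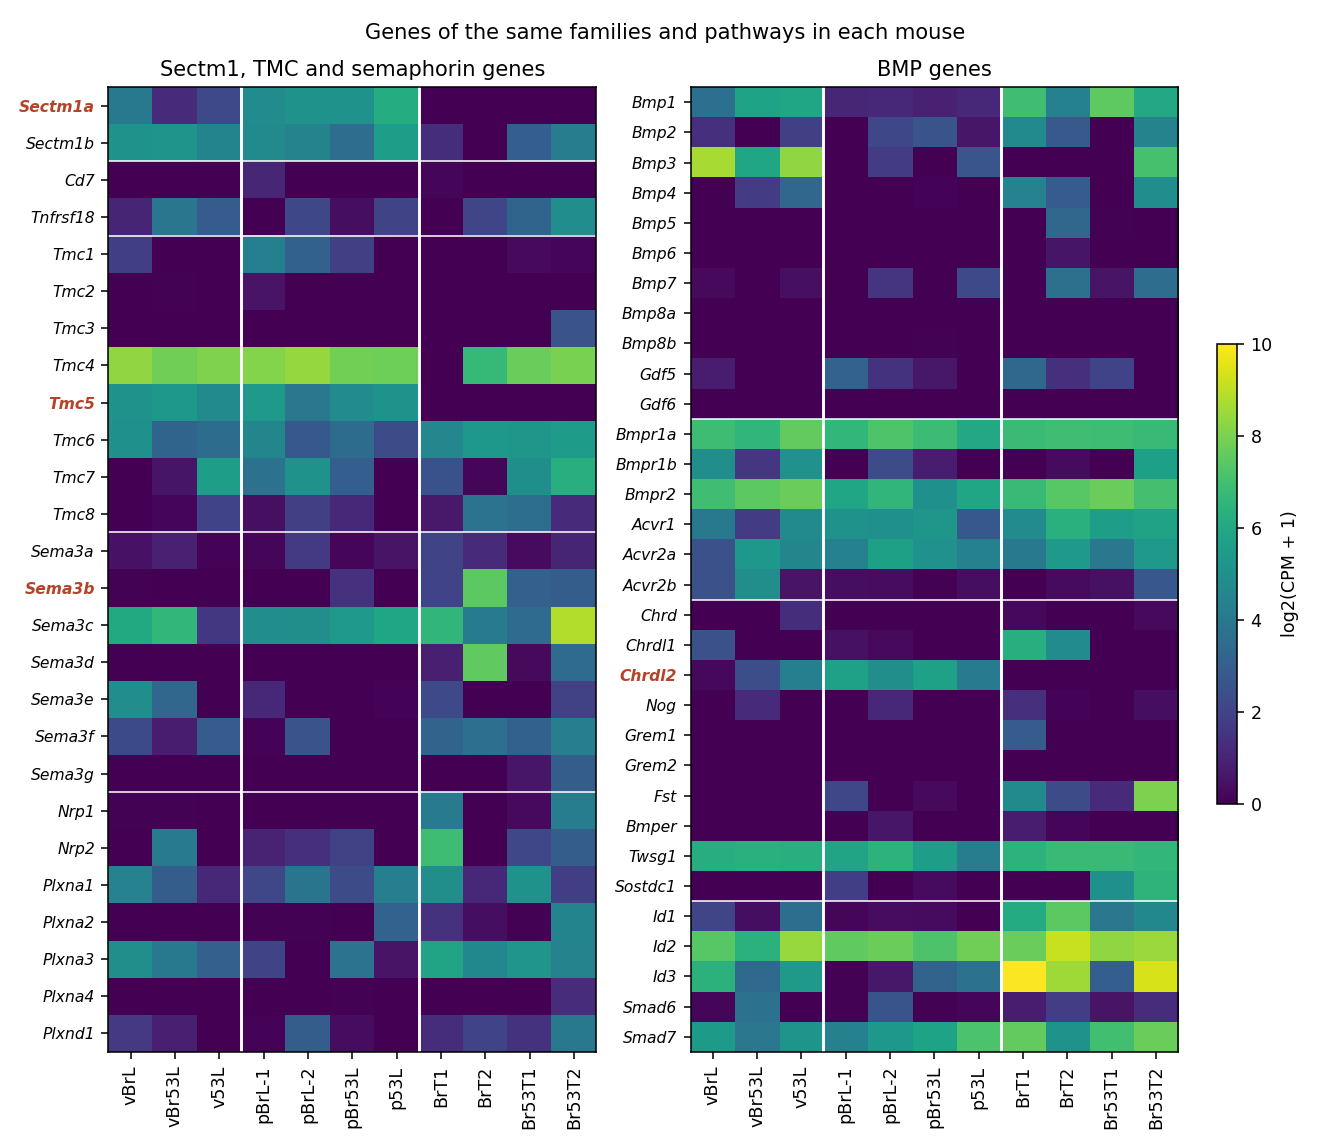
Log2(CPM + 1) of the genes of the Sectm1, TMC, semaphorin and BMP lists in each mouse, with *Sectm1a*, *Tmc5*, *Sema3b* and *Chrdl2* in bold; white lines part virgin, pregnant and tumor mice and the roles within a list. *Sectm1b* has reads in all tumors but BrT2, *Tmc4* in all but BrT1, and *Bmpr1a* and *Bmpr2* in all 4, and *Sema3b* and *Sema3d* are both brightest in BrT2.

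In the luminal fits, no gene of these lists was called by edgeR with the low-count filter in any of the 3 comparisons. For pregnancy, 19 of the 32 BMP genes could be tested, and their median log2 difference was -0.32 beside 0.12 over all genes. The median was -0.22 for 8 of 14 semaphorin genes, 1.57 for 6 of 8 *Tmc* genes and -0.35 for 3 of 4 Sectm1 genes. *Bmp1* (-4.85 ± 0.88 on the log2 scale, SE, edgeR adjusted p = 0.193), *Bmp3* (-8.32 ± 1.79, adjusted p = 0.240) and *Bmpr2* (-1.55 ± 0.43, adjusted p = 0.374) had an unadjusted p under 0.05 and missed the threshold after adjustment. These 3 passed it in edgeR without the low-count filter (adjusted p = 0.00153, 2.8e-15 and 0.0402) and in DESeq2 (1.48e-10, 0.00160 and 0.0196), and *Acvr2b* (0.0311), *Id3* (0.0338) and *Sema3f* (0.0402) passed in DESeq2. For pregnancy over all genes, 1229 of 12615 had an unadjusted p under 0.05 in edgeR. Without the filter 366 of 18426 passed in edgeR, and 1288 of 18426 passed in DESeq2. In the genotype comparisons *Bmp3* passed in edgeR without the filter (adjusted p = 0.00173 for *Brca1* mutant against 53 mice and 0.0446 for Br53 against Br mice), and in the first of them *Nrp2* (0.0220), *Plxnd1* (0.0382) and *Tmc1* (0.0116) passed in DESeq2. Of 18426 genes, edgeR without the filter called 106 in the first and 30 in the second, and DESeq2 called 860 in the first. For pregnancy *Sectm1b* differed by -0.35 ± 0.67 (log2, SE, edgeR adjusted p = 0.913), beside 2.98 for *Sectm1a*.

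The last comparison set each gene against its neighbors within 500 kb whose luminal mean was at least 10 CPM. Of 23 such genes around *Sectm1a*, 21 (BrT1), 22 (BrT2), 23 (Br53T1) and 23 (Br53T2) had reads in the tumors. The median of their log2 ratios to the luminal mean, on CPM + 1, was 0.50, 0.38, 0.64 and -0.18, beside -4.80 for *Sectm1a* in each tumor. The lowest neighbors were below that in BrT1 (*Cbr2* at -6.86 and *Zfp750* at -5.90) and in BrT2 (*Sectm1b* at -4.87). With 0 to 2 reads in tumors, the values of *Sectm1a*, *Tmc5* and *Chrdl2* on this scale are set by the 1 added to each CPM and understate their folds. All 9 neighbors of *Tmc5* had reads in each tumor, with medians of -0.16, -0.63, -0.40 and -0.03 beside -5.00 to -4.98 for *Tmc5*, and none was as low as *Tmc5*.

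All 8 neighbors of *Chrdl2* had reads in each tumor as well, but with lower medians of -3.13 (BrT1), -1.24 (BrT2), -1.28 (Br53T1) and -0.31 (Br53T2), beside -4.68 to -4.65 for *Chrdl2*. The lowest neighbor reached -4.15 in BrT1, and *Pgm2l1*, at -5.22 in Br53T1, was below *Chrdl2* on this scale. *Pgm2l1* held 0.219 CPM there and *Chrdl2* had no read, so that the added 1 sets this order. All 19 neighbors of *Sema3b* had reads in each tumor, with medians of -1.04, 0.47, -0.63 and 0.18, where *Sema3b* had 1.68, 7.14, 2.73 and 2.64. Since neighbors had to be read in luminal cells, genes read in tumors alone were not among them.

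**Figure D5:**
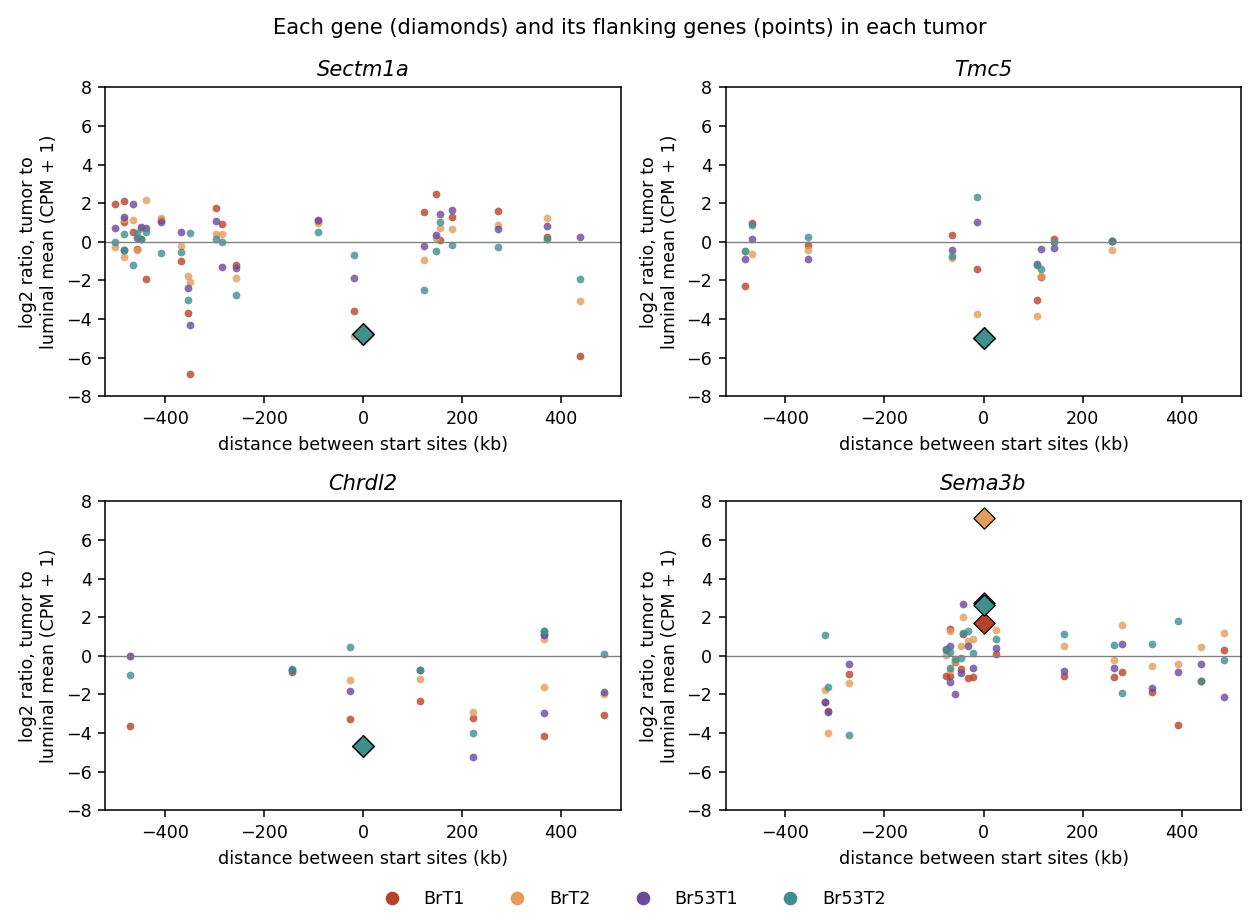
Log2 ratio of each tumor to the luminal mean, both as CPM + 1, for each gene (diamonds, overlying where tumors are alike) and its neighbors within 500 kb (points), by the distance between start sites in kb. The medians of the neighbors run from -3.13 (*Chrdl2* in BrT1) to 0.64 (*Sectm1a* in Br53T1), while *Sectm1a*, *Tmc5* and *Chrdl2* lie between -5.00 and -4.65 in all 4 tumors, where the 1 added to each CPM sets their values.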

How the data were processed

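The authors trimmed the reads with sickle and Trim Galore 0.4.1, aligned them to mm10 with STAR 2.5.3a and counted them per gene with Subread 1.5.3. The deposited table gives unnormalized read counts for each gene in each cell, without molecular identifiers. The annotation, the use of strand and filters before deposit were not given in the sources used here. Doublets had been looked for under a microscope and were not called again.

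The cells of a mouse were added up, and the mouse was the replicate. Luminal mice were tested with edgeR 4.0.16 (filterByExpr, TMM, quasi-likelihood, stage and genotype in 1 fit) in R 4.3.3, adjusted by Benjamini-Hochberg over all genes tested and called under 0.05, after tests on simulated data. DESeq2 1.42.0 and limma 3.58.1 were alternatives. On the simulated data a limit on false calls was required of edgeR and limma but not of DESeq2. Most groups held 1 mouse, so p-values rest on the spread between few mice. Shares of cells used 100000 reads per cell (0 cells were shallower) and exact 95% intervals. Nearest genes were searched among 13328 genes over mice and 7750 over cells (7760 for *Sema3b*), leaving out gene models. Of 21004 symbols, 20919 (99.6%) matched GENCODE vM21. Guide sequences came from the study's oligo list. The members and lists were chosen with earlier results of these data known. Named genes were the members, the 5 nearest by each measure (1 is not reported here) and genes of the lists (BMP, semaphorin, TMC, Sectm1 and cell type markers).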

Additional observations from a re-analysis of the deposited data

Results flagged for a closer look

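Single mice stood apart from the rest of their group in 10 of 21 group values examined. The rule's chance rate of about 1 in 20 does not apply to this count. CPM and share come from the same cells, and the pregnant mice are also among the luminal mice. A single mouse with reads among mice with none is always marked. *Sectm1a* at 73.1 CPM in p53L stood apart from the other pregnant mice, while the share of cells with a read there (19.4%) did not. *Tmc5* in Br53T2, at 0.0110 CPM and 1.96% of cells, and *Chrdl2* in Br53T2, at 0.0220 CPM, stood apart from the other tumors only because those had no read, and they rest on 1 and 2 reads.

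*Sema3b* in pBr53L, at 1.71 CPM and 7.55% of cells, stood apart from the other luminal mice and from the other pregnant mice. Its 172 reads came from 5 cells. *Sema3b* in BrT2, at 175 CPM and 73% of cells, stood apart from the other tumors.

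The direction from virgin to pregnant differed between genotypes for *Tmc5* and *Chrdl2*, which was not tested. On log2(CPM + 1), *Chrdl2* changed by 5.09 in Br, 3.34 in Br53 and -0.21 in 53 mice, so that Br exceeded 53 by 5.30 and Br53 exceeded 53 by 3.55. *Tmc5* changed by -0.54 in Br53 and 0.37 in 53 mice, a difference of -0.91, and by -0.36 in Br mice, where pBrL-1 lay above vBrL and pBrL-2 below. With 1 mouse per stage in Br53 and in 53, these are differences between single mice.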

How the results depend on the processing

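Mean CPM in luminal and tumor mice moved by less than the spread between mice in all 48 alternatives, which included leaving out each tumor, a setting chosen after seeing the data, as were the *Sema3b* ratios without 1 mouse. The tumor mean of *Sema3b* ranged from 5.71 without BrT2 to 63.1. Without thinning, *Tmc5* was read in 28.2% of luminal cells (mean over mice) and *Chrdl2* in 0.981% of tumor cells.

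The number of genes called for pregnancy was 1288 with DESeq2, 366 without the low-count filter, 40 with mean CPM over cells in limma, 42 with chip in place of genotype and 17 without a covariate, and 0 to 4 when 1 mouse was left out (4 without vBr53L, and 0 without pBr53L, vBrL or either pBrL mouse). For *Brca1*-deficient against 53 mice it was 860 with DESeq2, 106 without the filter and 0 to 17 when a mouse was left out (17 without p53L), and for Br53 against Br mice 383 with DESeq2 and 30 without the filter.

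For single genes, 107 of 123 alternatives kept the direction and the side of the threshold and 3 passed it for pregnancy. *Sectm1a* was higher in pregnancy in all 15 alternatives (log2 2.23 to 4.58) and *Chrdl2* too (1.75 to 5.83). Directions turned in 13, none of them past the threshold. Leaving out 1 mouse moved *Tmc5* in pregnancy between -0.41 and 0.12 (above 0 without vBr53L, pBrL-2 or pBr53L). For *Brca1*-deficient against 53 mice it moved *Tmc5* between -0.48 and 0.35 (above 0 without pBrL-2, pBr53L or p53L), *Chrdl2* between -4.10 (without p53L) and 1.84 (without v53L) and *Sectm1a* between -1.67 (without pBr53L) and 0.62 (without p53L). *Tmc5* was also at 0.058 there with library size alone. For Br53 against Br mice it moved *Sectm1a* between -2.85 (without pBr53L) and 0.13 (without vBrL), *Chrdl2* between -0.20 (without vBrL) and 2.30 (without p53L) and *Tmc5* between -0.10 (below 0 without vBr53L or pBrL-2) and 0.59. The cause was not tested. Mice were not paired by replicate number, because the groups shared a single such number. The fit with chip in place of genotype compares the stages within the chips that held both.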
